A study of Homo sapiens with 18 samples.

Results

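The state of OS cells labelled Saos-2 was compared between 1 day after printing and flat culture. DP-3 day 1 was cell-printed tissue harvested after 1 day, and D-2 was 2D culture harvested after 14 days. Members were chosen by the group each library carries in its labels: 3 DP-3 day 1 and 3 D-2 libraries, 6 of the 18 libraries of the series. DP-3 harvested after 14 days, also 3 libraries, was set beside them. For some genes the means of D-3 are given too. D-3 was unprinted 3D culture in Matrigel, harvested after 14 days (3 libraries). Saos-2 is an established osteosarcoma line of osteoblast-like cells, and D-2, D-3 and DP-3 were kept in DMEM-F12 with fetal bovine serum. The remaining groups, IT and FIT, were tumors grown from implanted cells in female BALB/c nude mice. FIT was taken fresh without culture, and IT was cultured after excision. Both enter here only in library properties and in fits of all 18 libraries. For DP-3 the cells were suspended in methacrylated gelatin and alginate, extruded through a nozzle, and cross-linked with blue light and calcium chloride. No 2D culture of day 1 was analysed here, so printing, hydrogel and days in culture cannot be told apart. The labels give a replicate number but no separate cultures, so p-values measure only the spread between these libraries, which may be technical. In bulk RNA, fewer cells of a kind and less RNA per cell cannot be told apart.

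Cells moved into a new environment can switch on several stress programs. The heat shock response makes chaperones that refold proteins. The integrated stress response slows translation and raises ATF4 and its targets, while the unfolded protein response serves the endoplasmic reticulum (ER). NRF2 raises antioxidant and heme-degrading enzymes, and interferon-stimulated genes act against viral RNA. Cells that lose a stiff, flat support lower the targets of YAP and of the actin-sensing factor SRF in many systems. Each program is described here by a list of its known genes.

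At DP-3 day 1, 29.6% to 48.4% of the ATF4, NRF2, immediate early and interferon-stimulated lists were upregulated, against 13.1% of all genes tested. Of the mitosis, ribosome biogenesis, cytoskeleton and YAP target lists, 30.4% to 91.2% were downregulated, against 4.13% of all genes tested. Of 31 ATF4-related genes, 15 were upregulated and 0 downregulated DEGs, and of 34 mitosis genes, 31 were downregulated and 0 upregulated. HSPA6, an inducible HSP70, rose from a mean of 0.246 to 9.51 FPKM. FPKM counts the fragments of a gene relative to its length and to the depth of the library. DEGs had an adjusted p below 0.05 (edgeR's quasi-likelihood test, Benjamini-Hochberg) and a fold change of at least 2. Of 20269 genes tested, 2655 (13.1%) were upregulated and 838 (4.13%) downregulated. These shares are the background for each count of list members below. The lists hold chiefly protein-coding genes, for which the shares differed. Of 13173 protein-coding genes tested, 9.21% were upregulated and 4.95% downregulated. Among 10359 of them at a mean of 1 FPKM or more, 456 were upregulated and 568 downregulated, with a median log2 fold change of -0.185. Against DP-3 day 14, 1196 of 20774 genes (5.76%) were upregulated and 375 (1.81%) downregulated at day 1. Both comparisons share the DP-3 day 1 libraries, so their values are only set side by side.

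In the number of genes listed at low levels the DP-3 day 1 libraries stood apart from the other 15. Between 24694 and 24791 genes reached 0.1 FPKM in them, against 17716 to 18109 in D-2 and 18664 to 22322 in the other groups. Olfactory receptor genes, which serve the nose and are not known for a role in bone cells, were above 0 FPKM for 221 to 238 of 374 genes at DP-3 day 1 and for 16 to 22 in D-2. Their mean level stayed low, at 0.0586 to 0.0701 FPKM at DP-3 day 1 and 0.0184 to 0.021 in D-2, and 95% of them lay at or under 0.226 FPKM in every DP-3 day 1 library. Upregulation was more frequent among long noncoding RNAs (868 of 3769 tested) than among protein-coding genes (1213 of 13173). Mitochondrial transcripts made up 4.73% to 4.76% of counts at DP-3 day 1 and 2.13% to 3.96% in D-2. The total of estimated counts was 50327345 to 50913046 at DP-3 day 1, 73805740 to 79082786 in D-2 and 60000387 to 77174403 in DP-3 day 14. The median difference between libraries on the log2 scale was 0.102 to 0.104 among the 3 of DP-3 day 1, 0.0923 to 0.114 in D-2 and 0.143 to 0.263 in DP-3 day 14. Other measures did not all point one way. Log2 counts relative to library depth correlated at 0.9704 to 0.9733 among the DP-3 day 1 libraries and at 0.9726 to 0.9782 in D-2. By FPKM and by the chi-square of counts, the DP-3 day 1 libraries were more alike than those of D-2. FPKM correlated at 0.9993 to 0.9996 among the DP-3 day 1 libraries, against 0.948 to 0.987 in D-2 and 0.929 to 0.961 in DP-3 day 14. The chi-square of counts over its degrees of freedom, larger where libraries are less alike or deeper, was 14.3 to 18.5, 26.8 to 41.6 and 34 to 114. The 3 DP-3 day 1 libraries were counted as 3 as their labels give them, and whether they come from separate cultures was not tested. When they were summed to 1 sample, 1031 upregulated and 691 downregulated DEGs were called against D-2 and 0 against DP-3 day 14. In those fits the spread comes from the other group alone, and the summed sample is assumed to vary like it. The part of these library properties in the results was not tested.

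**Figure D1:**
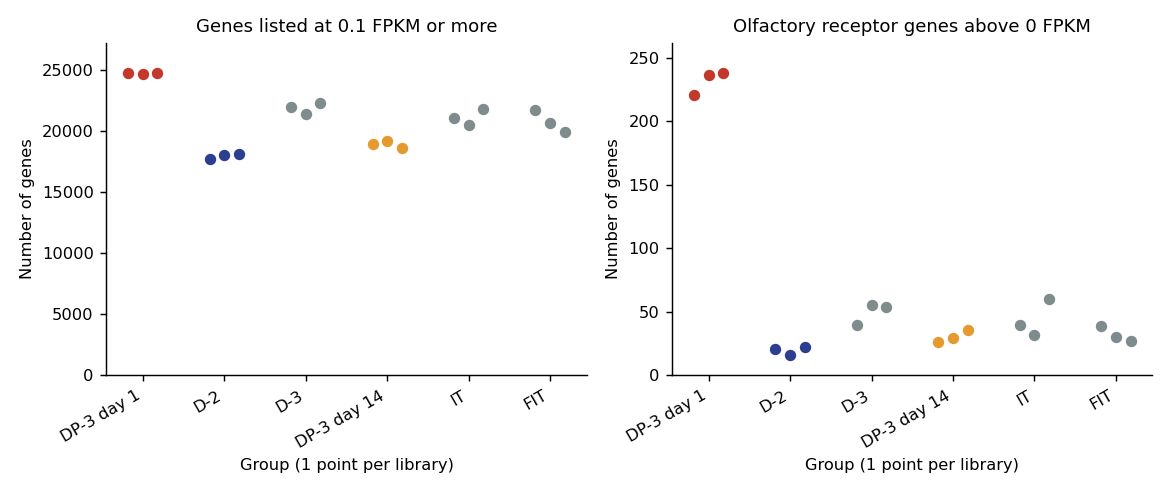
Number of genes at 0.1 FPKM or more (left panel) and number of olfactory receptor genes above 0 FPKM (right panel), with 1 point per library in each of the 6 groups. The 3 DP-3 day 1 libraries lie between 24694 and 24791 genes and between 221 and 238 olfactory receptor genes, above the other 15 libraries in both.

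The scale also bears on the direction. The log2 ratio of mean FPKM exceeded the fitted log2 fold change by a median of 0.31 over 11067 genes at 1 FPKM or more in both groups. The median log2 fold change of all genes tested was 0.10 in the edgeR fit, 0.24 with upper-quartile scaling and 0.35 in limma on log2(FPKM + 0.1). The upregulated share of DEGs was 76.0% in the edgeR fit and 86.6% with upper-quartile scaling (3139 upregulated, 487 downregulated). Counts from the FPKM scale are therefore given beside many of the lists with downregulated genes. In limma on log2(FPKM + 1), 0 genes were downregulated on the immediate early, NF-kB, apoptosis, interferon and fatty acid synthesis lists. On the glycolysis list that fit called 1. Whether reads were counted by strand is not given in the sources used here, so genes that overlap another gene on either strand are uncertain. Among those named below, these include HSPA6, DDIT4, DDIT3, DNAJB9, HSP90B1, FOSB, RSAD2, IFIT1, IFIT2, CCL5, BMF, BBC3, SQSTM1, GABARAPL1, CCN2, TAGLN, ACTA2, TPM4, THBS1 and the neighbours HSPD1 and HSPE1.

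The libraries were checked against markers of the osteoblast lineage. SPARC, a matrix protein of bone, had 122 to 128 FPKM at DP-3 day 1 and 154 to 171 in D-2. However, ALPL, the alkaline phosphatase for which Saos-2 is known, did not exceed 0.0917 FPKM in any of these 6 libraries. SP7 and IBSP, which define osteoblasts, were listed at 0 in all 3 D-2 libraries and did not exceed 0.0802 FPKM at DP-3 day 1. The defining osteoblast markers were thus at or near 0 in both groups, against the label of an osteoblast-like line. The identity of the line was not tested, and the cells are called by their groups here. Among markers of other cells, PTPRC of leukocytes did not exceed 0.0625 FPKM, CDH1 of epithelium 0.0456 and MYH1 of skeletal muscle 0.0324. The summed level of the 10 leukocyte markers was 1.84 to 2.94 FPKM at DP-3 day 1 and 1.83 to 2.04 in D-2, that of the 11 epithelial markers 3.51 to 3.58 and 1.78 to 2.05, and that of the 10 muscle markers 0.628 to 0.863 and 0.0765 to 0.275. The 9 endothelial markers summed to 50.6 to 51.9 FPKM at DP-3 day 1 and 27.98 to 29.7 in D-2, and 42.8 to 44.7 and 22.4 to 24.4 FPKM of this came from TIE1. Of the markers tested, 1 of 2 leukocyte genes (HLA-DRA), 0 of 5 endothelial, 3 of 6 epithelial (CLDN4, ESRP1 and ESRP2) and 1 of 2 muscle genes (TTN) were upregulated, and the leukocyte gene CSF1R was downregulated. CLDN3 was listed at 0 in all 6 libraries, and MYH1, MYH2, MYH4 and MS4A1 in all 3 D-2 libraries. The part of these markers in the results was not tested.

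Sequences just before the starts of genes that moved are shown because the factors behind these programs are known for short DNA motifs. They come from RefSeq, build GRCh38.p14, strand of the gene, with capitals marking the motif on either strand. For the integrated stress response the C/EBP-ATF response element was searched as TGATGNAA, where N is any base, and for interferon the interferon-stimulated response element as GAAA, any 2 bases and GAAA. The heat shock element was searched as GAA, any 2 bases, TTC, any 2 bases and GAA, and the cell cycle homology region of mitosis genes as TTTGAA.
HSPA6, heat shock element, chr1:161524436-161524508, plus strand: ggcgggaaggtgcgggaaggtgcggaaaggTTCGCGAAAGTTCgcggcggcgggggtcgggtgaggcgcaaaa
ASNS, C/EBP-ATF response element, chr7:97872439-97872506, minus strand: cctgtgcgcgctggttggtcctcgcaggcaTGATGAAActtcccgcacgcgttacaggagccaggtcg
ATF3, C/EBP-ATF response element, chr1:212565186-212565253, plus strand: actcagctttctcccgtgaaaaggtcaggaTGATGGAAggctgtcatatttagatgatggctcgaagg
RSAD2, interferon-stimulated response element, chr2:6877602-6877671, plus strand: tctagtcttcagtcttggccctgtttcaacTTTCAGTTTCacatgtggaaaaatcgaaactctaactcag
IFIT1, interferon-stimulated response element, chr10:89392477-89392559, plus strand: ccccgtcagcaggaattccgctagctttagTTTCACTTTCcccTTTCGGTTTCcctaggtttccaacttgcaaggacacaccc
ISG15, interferon-stimulated response element, chr1:1013354-1013429, plus strand: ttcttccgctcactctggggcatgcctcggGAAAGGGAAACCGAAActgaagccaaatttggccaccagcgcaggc
PLK1, cell cycle homology region, chr16:23678830-23678888, plus strand: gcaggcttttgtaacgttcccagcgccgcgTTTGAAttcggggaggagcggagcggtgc
CCNB2, cell cycle homology region, chr15:59105087-59105145, plus strand: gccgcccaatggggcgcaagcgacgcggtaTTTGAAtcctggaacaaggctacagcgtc
In ISG15 the capitals hold a pair of overlapping matches. Over the 250 bases before the start, the interferon element stood before 17 of 25 interferon-stimulated genes matched by symbol and before 3.02% of all 35116 starts in the table. It stood before 10 of the 12 of these that were DEGs, among them the downregulated IFITM1, and before 7 of the 13 that were not. The cell cycle element stood before 15 of 28 mitosis genes (14 of 27 DEGs and 1 of 1 other) and 13.3% of all starts. The heat shock element stood before 7 of 22 chaperone genes and 0.441% of all starts, among them 1 upregulated gene (HSPA6), 1 downregulated gene (HSPD1) and 5 that were not DEGs. The C/EBP-ATF element stood before 5 of 25 ATF4-related genes (3 of 13 DEGs and 2 of 12 others) and 3.14% of all starts. An NRF2 motif, the antioxidant response element searched as TGACNNNGC, stood before 4 of 16 NRF2 targets and 10.9% of all starts, and none of these 4 was a DEG. A gene was counted if any of its starts held the motif, whereas the shares of all starts count each start singly. Genes with several starts thus had more chances, and the 2 measures are unlike. A match is a description of these letters, not a site of binding.

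The integrated stress response list had 15 upregulated genes of 31. Among these, ATF3 is also counted on the immediate early list and SLC7A11 on the NRF2 list. The median log2 fold change of the ATF4 list was 0.78 against 0.10 for all genes tested. Upregulated DEGs were 48.4% of the list against the background of 13.1%. DDIT4, which restrains the growth kinase mTOR, rose most (chromosome 10, 72273924 to 72276036 on GRCh38). It had 55.6, 52.3 and 52.7 FPKM at DP-3 day 1 and 2.90, 3.56 and 4.33 in D-2. The groups lay far apart, and the log2 fold change was 3.58 ± 0.15 (SE, adjusted p = 2.0e-05). DDIT3, the stress factor CHOP, had 26.0, 30.2 and 21.8 FPKM at DP-3 day 1 against 5.38, 4.77 and 3.70 in D-2 (log2 fold change 2.18 ± 0.18, adjusted p = 0.00017). It overlaps MARS, a tRNA synthetase gene on the other strand, and MIR616 on its own. ATF3, a repressor induced by many stresses, had 3.03, 3.83 and 2.98 FPKM against 0.219, 0.574 and 0.389 (log2 fold change 2.73 ± 0.35, adjusted p = 0.00097). The lowest DP-3 day 1 library of each of these genes was above the highest D-2 library.

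Further ATF4 targets rose. TRIB3, a pseudokinase that feeds back on this response, had 14.2, 16.8 and 13.3 FPKM against 3.94, 3.25 and 4.14 (log2 fold change 1.65 ± 0.13). ASNS, which makes asparagine, had 8.57, 9.58 and 9.59 FPKM against 2.77, 3.26 and 2.43 (1.40 ± 0.12). Both groups were separate in both genes, with adjusted p = 0.00014 and 0.00018. Of the list, 16 members were not DEGs. Their log2 fold changes ranged from -0.98, for ATF4 itself, to 0.78, for the alanyl-tRNA synthetase AARS1. ATF4 is chiefly controlled in its translation, which RNA levels do not measure. Against DP-3 day 14, 10 of the 31 genes were upregulated and 0 downregulated, with a median log2 fold change of 0.60. DDIT4 averaged 5.71 FPKM in DP-3 day 14 and DDIT3 7.21. Unprinted D-3 had higher means than DP-3 day 1 in the upregulated genes named here. These were 96.9 FPKM for DDIT4, 107 for DDIT3, 6.14 for ATF3, 36.1 for TRIB3 and 25.3 for ASNS. High levels of these genes were thus not particular to printed cells at day 1. The 15 calls against D-2 were 14 to 17 under the other settings run on separate libraries.

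Of 25 chaperone genes 4 were upregulated (16%) and 2 downregulated (8%), and the median log2 fold change was -0.57. The shares were 13.1% and 4.13% of all genes tested and 9.21% and 4.95% of protein-coding genes. HSPA6 (chromosome 1, 161524540 to 161526894) had 10.3, 9.42 and 8.77 FPKM at DP-3 day 1 and 0.233, 0.207 and 0.297 in D-2. The D-2 libraries were nearly silent for it, and the log2 fold change was 4.94 ± 0.18 (adjusted p = 1.8e-05). HSPA1A and HSPA1B, the classical inducible HSP70 genes, have nearly the same sequence, so reads can be split between them. HSPA1A had 182 FPKM in each DP-3 day 1 library and 23.9, 26.3 and 29.5 in D-2 (log2 fold change 2.47 ± 0.083, adjusted p = 1.8e-05). HSPA1B rose from a mean of 40.5 to 264 FPKM (2.40 ± 0.11, adjusted p = 2.2e-05). Both had intermediate means in DP-3 day 14, at 105 and 156 FPKM, and were not DEGs between days. In 1 fit of all 18 libraries HSPA1A was no DEG and 2 of the 25 chaperone genes were upregulated.

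Other chaperones were downregulated or not called. HSPD1 and HSPE1, the mitochondrial chaperonin pair, had log2 fold changes of -1.02 ± 0.052 and -1.05 ± 0.16 (adjusted p = 2.8e-05 and 0.0023), in both cases without overlap between groups. HSPD1 went from 221 to 240 FPKM in D-2 to 134 to 143 at DP-3 day 1. Both calls were lost in the limma fits of FPKM, with upper-quartile scaling, with an FPKM minimum of 1 and among protein-coding genes alone, where 0 chaperone genes were downregulated. That of HSPE1, which had 47.6, 45.5 and 68.8 FPKM at DP-3 day 1, was also lost without DP-3 day 1 replicate 1 and without replicate 2. DNAJB1, the HSP40 partner of HSP70, had 56.3, 75.4 and 53.5 FPKM against 28.8, 34.6 and 31.1 and did not reach 2-fold in the fit (log2 fold change 0.66 ± 0.14, adjusted p = 0.0098). The summed level of the list was 2557 to 2658 FPKM at DP-3 day 1, below the 2992 to 3089 FPKM of D-2.

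ER folding genes gave few DEGs. Of 23 genes of the unfolded protein response 2 were upregulated and 1 downregulated, and these numbered 5 and 0 in limma on log2(FPKM + 0.1). The edgeR shares were 8.7% and 4.35%, against 13.1% and 4.13% of all genes and 9.21% and 4.95% of protein-coding genes. XBP1, whose spliced form drives ER folding genes, had 63.9, 62.1 and 45.6 FPKM against 18.1, 17.9 and 19.6 (log2 fold change 1.32 ± 0.13, adjusted p = 0.00036). DNAJB9, an ER co-chaperone, rose from a mean of 2.64 to 7.43 FPKM (1.18 ± 0.11, adjusted p = 0.00022). Both rises held their call in every setting run. HSPA5, the main ER chaperone BiP, had 242, 236 and 234 FPKM against 252, 257 and 277 (log2 fold change -0.45 ± 0.049). HSP90B1, the ER form of HSP90, had 124 to 140 FPKM against 207 to 267 (-1.13 ± 0.11, adjusted p = 0.00032), a call lost in both limma fits of FPKM, with upper-quartile scaling and with an FPKM minimum of 1.

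NRF2 targets rose in part. Of 23 genes 7 were upregulated (30.4%) and 0 downregulated, with a median log2 fold change of 0.51. HMOX1, which breaks down heme, had 248, 280 and 250 FPKM at DP-3 day 1 and 35.7, 33.5 and 29 in D-2 (log2 fold change 2.68 ± 0.096, adjusted p = 1.8e-05). OSGIN1, a growth inhibitor induced by oxidative stress, had 8.38, 9.12 and 9.12 FPKM against 1.78, 1.76 and 1.73 (2.02 ± 0.068, adjusted p = 1.8e-05). AKR1C1, an aldo-keto reductase with close paralogs, rose from a mean of 1.97 to 8.74 FPKM (1.84 ± 0.097). The first 2 of these were also DEGs against DP-3 day 14, with mean levels there of 58.2 and 2.42 FPKM. In D-3 the means of HMOX1, OSGIN1 and AKR1C1 were 131, 10 and 4.39 FPKM. NQO1, a quinone reductase and a standard NRF2 target, had 47.0, 59.8 and 61.8 FPKM against 28.5, 27.0 and 25.4 and stayed under 2-fold (log2 fold change 0.75 ± 0.11, adjusted p = 0.0019). No metallothionein, a family that binds zinc and copper, was upregulated. MT1E had 42.5 to 43.8 FPKM against 84.0 to 91.4 (-1.33 ± 0.054, adjusted p = 1.9e-05). MT2A had 316 to 337 against 375 to 400 FPKM (-0.56 ± 0.047), and 3 of the 8 metallothioneins on the list were tested.

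SQSTM1, the autophagy receptor p62 and itself a target of NRF2, rose with them. It had 263, 276 and 258 FPKM at DP-3 day 1 and 45, 47.8 and 45.9 in D-2 (log2 fold change 2.21 ± 0.049, adjusted p = 1.8e-05). Of 35 autophagy and lysosome genes 6 were upregulated (17.1%) and 0 downregulated. The median log2 fold change was 0.08, close to the 0.10 of all genes and above the -0.09 of protein-coding genes. GABARAPL1, which coats autophagosomes, had 8.95, 9.26 and 8.59 FPKM against 3.26, 2.85 and 3.12 (1.23 ± 0.081, adjusted p = 6.8e-05). Both SQSTM1 and GABARAPL1 were DEGs against DP-3 day 14 too, where they averaged 81.6 and 2.60 FPKM. Unprinted D-3 averaged 179 FPKM for SQSTM1, below DP-3 day 1, and 9.56 for GABARAPL1, above it.

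**Figure D2:**
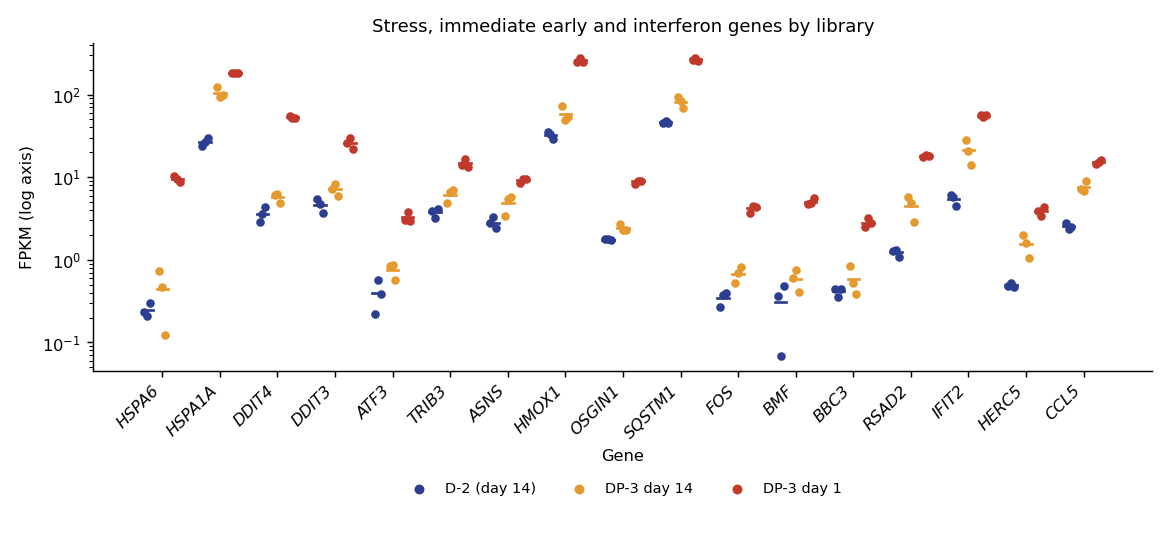
FPKM on a log axis of 17 stress, immediate early and interferon genes in the 3 libraries each of D-2, DP-3 day 14 and DP-3 day 1, with points for libraries and lines for means. In every gene shown the 3 DP-3 day 1 libraries lie above the 3 D-2 libraries, from 8.77 to 10.3 against 0.207 to 0.297 FPKM for HSPA6.

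Hypoxia genes gave no DEG. Of 20 tested, 0 were up- or downregulated, with log2 fold changes of -0.66 to 0.95 and a median of 0.23. In both limma fits of FPKM, with upper-quartile scaling, with an FPKM minimum of 1 and among protein-coding genes alone, 2 of them were upregulated. SLC2A1, the glucose transporter GLUT1, had 6.25, 4.34 and 4.26 FPKM against 7.65, 4.91 and 4.37, and the groups overlapped (log2 fold change -0.50 ± 0.25, adjusted p = 0.15). CA9, a standard hypoxia marker, did not exceed 0.0921 FPKM in these libraries. Of 17 glycolysis genes 2 were downregulated. LDHA, which makes lactate, had 86.5, 84.6 and 82.7 FPKM against 186, 201 and 244 (-1.63 ± 0.10, adjusted p = 5.6e-05). PGAM1 had 105 to 114 against 186 to 189 FPKM (-1.08 ± 0.046), a call lost in both limma fits of FPKM, with upper-quartile scaling, with an FPKM minimum of 1 and among protein-coding genes alone.

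Immediate early genes respond within minutes to signals. Of 27 tested 8 were upregulated (29.6%) and 1 downregulated at DP-3 day 1, and 18 were not DEGs. FOS had 3.71, 4.51 and 4.40 FPKM against 0.268, 0.379 and 0.392 (log2 fold change 3.26 ± 0.19, adjusted p = 4.6e-05). FOSB, its close relative, had 2.71, 1.72 and 1.48 FPKM against 0.263, 0.114 and 0.209 (3.00 ± 0.38, adjusted p = 0.00097). Both groups were separate in both genes. JUN, the main partner of FOS, had 80.8, 81.3 and 82.8 FPKM against 70.1, 69.2 and 72.8, and the fit gave no call (-0.10 ± 0.041, adjusted p = 0.082). EGR1 had 2.47, 2.36 and 2.14 FPKM against 1.11, 1.62 and 1.20 (0.51 ± 0.18, adjusted p = 0.057), while in DP-3 day 14 it had 7.56, 6.24 and 11.5 FPKM. Against DP-3 day 14 it was a downregulated DEG (log2 fold change -2.14, adjusted p = 0.0032). IER3, an early survival gene, had 0.230 to 0.428 FPKM against 0.938 to 1.16 in D-2 (-1.90 ± 0.33, adjusted p = 0.0039).

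Interferon-stimulated genes were upregulated in nearly the same share as the ATF4 list. Of 32 tested 15 were upregulated (46.9%) and 1 downregulated, and the median log2 fold change was 1.09. That median was 0.60 in limma on log2(FPKM + 1). RSAD2, the antiviral enzyme viperin, had 17.4, 18.5 and 17.8 FPKM at DP-3 day 1 and 1.29, 1.3 and 1.09 in D-2 (log2 fold change 3.56 ± 0.090, adjusted p = 1.8e-05). IFIT2, which binds foreign RNA, had 56.2, 53.7 and 56.8 FPKM against 6.12, 5.70 and 4.54 (3.04 ± 0.12, adjusted p = 1.8e-05). HERC5, the ligase for ISG15, had 3.91, 3.41 and 4.32 FPKM against 0.483, 0.520 and 0.464 (2.67 ± 0.13, adjusted p = 2.7e-05). No library of D-2 reached the lowest library of DP-3 day 1 in these genes. IFIT1 rose from a mean of 5.87 to 24.1 FPKM (1.73 ± 0.083, adjusted p = 2.5e-05).

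The interferon signal was also present in printed tissue at day 14. RSAD2 had 5.68, 4.88 and 2.90 FPKM there and IFIT2 28.4, 20.8 and 14.2, between the levels of D-2 and DP-3 day 1. IFIT1 had 17.8, 19.6 and 12.1 FPKM and was no DEG between days (log2 fold change 0.29, adjusted p = 0.21). Of 33 genes tested between days, 5 were upregulated at day 1 and 2 downregulated, with a median log2 fold change of -0.09. IFITM1, a membrane protein that blocks virus entry, ran the other way, with 4.35, 3.93 and 5.39 FPKM at DP-3 day 1 against 7.57, 8.67 and 10.5 in D-2 (-1.27 ± 0.19, adjusted p = 0.0019). It overlaps IFITM2, and its call was lost in both limma fits of FPKM and in 1 fit of all 18 libraries.

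Of 32 NF-kB targets, cytokines and chemokines 23 were tested, and 4 were upregulated (17.4%) and 2 downregulated (8.7%). The shares were 13.1% and 4.13% of all genes and 9.21% and 4.95% of protein-coding genes. CCL5, a chemokine that interferon also induces, had 14.4, 15.5 and 16.3 FPKM against 2.76, 2.34 and 2.52 (log2 fold change 2.28 ± 0.11, adjusted p = 2.5e-05). RELB, an NF-kB subunit, had 8.19, 8.04 and 7.00 FPKM against 1.99, 1.43 and 2.20 (1.74 ± 0.18, adjusted p = 0.00039). In D-3 the means were 7.06 FPKM for CCL5 and 11.05 for RELB. CXCL8, the chemokine interleukin-8, was lower, with 1.65, 1.68 and 1.92 FPKM against 4.51, 4.54 and 3.84 (-1.60 ± 0.14, adjusted p = 0.00018). It was lower still relative to DP-3 day 14, where it had 13.2, 11.1 and 9.78 FPKM. IL6 showed no difference that could be called (0.508 to 0.708 against 0.370 to 0.733 FPKM, adjusted p = 0.51).

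Of 24 apoptosis regulators tested 3 were upregulated (12.5%) and 1 downregulated (4.17%), and 20 were not DEGs. The shares were 13.1% and 4.13% of all genes and 9.21% and 4.95% of protein-coding genes. BMF and BBC3 (PUMA) are BH3-only proteins that promote apoptosis. BMF had 4.77, 4.81 and 5.57 FPKM against 0.362, 0.0693 and 0.486 (log2 fold change 3.71 ± 0.59, adjusted p = 0.0027). BBC3 had 2.48, 3.19 and 2.76 FPKM against 0.447, 0.357 and 0.438 (2.43 ± 0.18, adjusted p = 0.00010). The D-2 level of BMF varied widely, but every DP-3 day 1 library was above it. BIRC3, which inhibits cell death, rose as well (1.06 ± 0.14, adjusted p = 0.0011), with 2.68 to 3.38 FPKM against 1.02 to 1.32, but this call was lost without D-2 replicate 1, without DP-3 day 1 replicate 1 and in 3 other settings. Of 16 growth arrest genes tested 3 were upregulated (18.8%) and 0 downregulated. CDKN1A, the inhibitor p21, had 14.4, 14.6 and 16.3 FPKM against 5.82, 5.39 and 5.61 (1.12 ± 0.075, adjusted p = 7.1e-05). TXNIP, which blocks glucose uptake, had 11.8 to 13.2 FPKM against 3.00 to 3.38 (1.67 ± 0.078, adjusted p = 2.3e-05), a call lost in 1 fit of all 18 libraries. D-3 had means of 0.390 FPKM for BMF, 5.42 for BBC3, 6.55 for BIRC3, 21.4 for CDKN1A and 27.8 for TXNIP. High levels of the last 4 were thus not particular to printed cells at day 1.

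Most mitosis genes were downregulated. Of 34 genes 31 were downregulated, 91.2% against a background of 4.13%, with a median log2 fold change of -1.20. CCNB1, the cyclin that drives entry into mitosis, had 41.5, 39.9 and 39.3 FPKM at DP-3 day 1 and 104, 102 and 98.7 in D-2 (log2 fold change -1.64 ± 0.044, adjusted p = 1.8e-05). UBE2C, which tags cyclins for destruction, had 61.0, 63.0 and 65.8 FPKM against 171, 164 and 170 (-1.72 ± 0.048). CENPE, a kinetochore motor, had 3.67, 3.49 and 3.99 FPKM against 9.43, 10.4 and 10.7 (-1.77 ± 0.076, adjusted p = 2.0e-05). The libraries of each group lay close together in these genes. TOP2A had 37.9 to 38.6 FPKM against 62.2 to 64.5 (-1.04 ± 0.038), a call lost in both limma fits of FPKM, with upper-quartile scaling, with an FPKM minimum of 1 and among protein-coding genes alone. MKI67 was not called (-0.60 ± 0.26, adjusted p = 0.11), with 18.9, 17.9 and 9.23 FPKM against 16.9, 21.0 and 18.5. In limma on log2(FPKM + 0.1), 11 of the 34 genes were downregulated and the median was -0.89, against 0.35 for all genes. With upper-quartile scaling 23 were downregulated, and 0 were upregulated in any setting run. Between days 10 of the 34 were downregulated at day 1, and CCNB1 had 83.7, 78.4 and 57.8 FPKM in DP-3 day 14. Means in D-3 were 40.8 FPKM for CCNB1, 99.5 for UBE2C, 3.71 for CENPE, 47.6 for TOP2A and 12.6 for MKI67.

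Of 37 DNA replication genes 7 were downregulated (18.9%) and 0 upregulated, with a median log2 fold change of -0.78. GINS2, part of the replicative helicase, had 7.22, 6.89 and 6.87 FPKM against 15.2, 14.2 and 13.6 (-1.34 ± 0.065, adjusted p = 2.5e-05). TK1, which salvages thymidine, had 53.2 to 54.0 FPKM against 95.2 to 104 (-1.22 ± 0.048, adjusted p = 1.9e-05). MCM2, a helicase subunit that marks licensed cells, had 28, 28.2 and 24.8 FPKM against 31.7, 33.7 and 28.9 and stayed under 2-fold (-0.53 ± 0.079). In limma on log2(FPKM + 0.1) 1 of the 37 genes was called, and with upper-quartile scaling 4. RRM2 overlapped between groups, with 8.35, 8.46 and 16.7 FPKM against 32.4, 18.6 and 15.6, and lost its call in 7 settings, among them without D-2 replicate 1 and without DP-3 day 1 replicate 1 or 2.

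Ribosome biogenesis genes encode the factors that assemble ribosomes. Of 30 ribosome biogenesis genes 12 were downregulated (40%) and 0 upregulated, with a median log2 fold change of -0.91. NPM1, the nucleolar chaperone nucleophosmin, had 130, 136 and 136 FPKM at DP-3 day 1 and 315, 290 and 304 in D-2 (log2 fold change -1.49 ± 0.048, adjusted p = 1.8e-05). BYSL, needed for the small subunit, had 10.7, 13.2 and 10.3 FPKM against 22.2, 28.3 and 23.0 (-1.41 ± 0.14, adjusted p = 0.00030). Of 60 ribosomal protein genes 8 were downregulated (13.3%), of 41 nuclear-encoded respiratory chain genes 7 (17.1%), and 0 of either were upregulated. Their medians were -0.76 and -0.65. RPS24 had 28.9, 31.0 and 29.5 FPKM against 55.2, 55.9 and 56.0 (-1.21 ± 0.044). ATP5F1C, a subunit of the ATP synthase, had 39.5, 41.8 and 39.9 FPKM against 74.8, 75.0 and 76.3 (-1.21 ± 0.045). In limma on log2(FPKM + 0.1), 2 biogenesis genes and 0 of the other 2 lists were called, and with upper-quartile scaling 6, 3 and 2. Between days 0 genes of these 3 lists were DEGs in the edgeR fit. Gene length moved with the result. Among 10359 protein-coding genes at a mean of 1 FPKM or more, the 2073 shortest (exons of 192 to 2107 bases together) had a median log2 fold change of -0.38 and the 2072 longest (6262 to 35303 bases) -0.09. Ribosomal protein genes had a median exon length of 1360 bases. The part of length was not tested.

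Of 23 genes tested of 25 on the actin cytoskeleton and SRF list, 10 were downregulated (43.5%) and 0 upregulated, with a median log2 fold change of -0.84. TAGLN, an actin-binding protein of contractile cells, had 2.71, 3.15 and 3.13 FPKM at DP-3 day 1 and 13.4, 11.7 and 11 in D-2 (log2 fold change -2.31 ± 0.10, adjusted p = 2.1e-05). ACTA2, smooth muscle actin, had 1.46, 1.29 and 1.01 FPKM against 3.59, 4.04 and 3.71 (-1.89 ± 0.17, adjusted p = 0.00021). TPM4, a tropomyosin, had 38.5, 38.0 and 39.3 FPKM against 143, 80.3 and 103 (-1.80 ± 0.20, adjusted p = 0.00052). The groups were separate in these genes. In limma on log2(FPKM + 0.1) 5 of the 23 were downregulated, and between days 4 were.

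YAP targets fell in part. Of 23 genes 7 were downregulated (30.4%) and 0 upregulated, with a median log2 fold change of -0.60. CCN2, a matrix-associated growth regulator (chromosome 6, 131948176 to 131951372), had 37.8, 38.2 and 38.3 FPKM at DP-3 day 1 and 248, 225 and 178 in D-2. The groups lay far apart, with a log2 fold change of -2.82 ± 0.12 (adjusted p = 2.1e-05). ANKRD1, a stretch-responsive muscle protein, had 9.41, 10.8 and 9.64 FPKM against 42.9, 38.3 and 34.6 (-2.27 ± 0.10, adjusted p = 2.1e-05). CCN1 had 58.2, 65.1 and 64.6 FPKM against 116, 131 and 109 (-1.24 ± 0.082, adjusted p = 6.8e-05), a call lost in both limma fits of FPKM. In DP-3 day 14 the means of these 3 genes were 143, 19.6 and 97.5 FPKM, between those of DP-3 day 1 and D-2 in each case. In D-3 they were 31.7, 26.6 and 72.7 FPKM. Downregulated genes numbered 4 of the 23 in limma on log2(FPKM + 0.1).

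Targets of TGF-beta overlapped these lists. Of 16 tested 6 were downregulated and 1 upregulated (3 and 1 in limma on log2(FPKM + 1)), and CCN2, TAGLN and COL1A1 stand on more than 1 list. TGFBI, a matrix protein named for its induction, had 4.57, 4.09 and 4.40 FPKM against 11.6, 10.8 and 11 (-1.67 ± 0.060, adjusted p = 1.8e-05). LTBP3, which holds latent TGF-beta in the matrix, was higher, with 19.9, 22.4 and 20.2 FPKM against 5.44, 5.83 and 6.05 (1.54 ± 0.071, adjusted p = 2.2e-05).

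**Figure D3:**
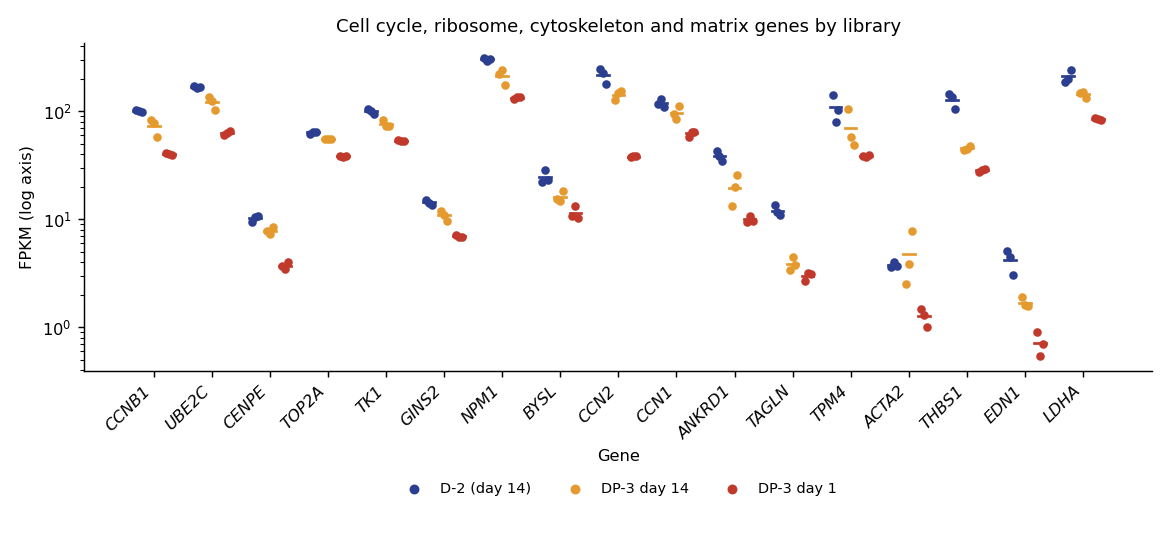
FPKM on a log axis of 17 cell cycle, ribosome, cytoskeleton and matrix genes in the 3 libraries each of D-2, DP-3 day 14 and DP-3 day 1, with points for libraries and lines for means. In every gene shown the 3 DP-3 day 1 libraries lie below the 3 D-2 libraries, from 37.8 to 38.3 against 178 to 248 FPKM for CCN2.

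Matrix genes did not move one way. Of 20 collagen genes tested 4 were downregulated and 2 upregulated, and of 29 matrix glycoproteins and crosslinkers 5 and 1. With a pseudocount of 0.1 limma called 4 collagen genes and 4 of the others downregulated, and with a pseudocount of 1 it called 0 and 3. COL1A1, the main collagen of bone, had 1.79, 1.99 and 1.9 FPKM at DP-3 day 1 and 3.56, 4.23 and 4.77 in D-2 (log2 fold change -1.45 ± 0.12, adjusted p = 0.00015). THBS1, the matricellular protein thrombospondin-1, had 27.6, 28.6 and 29.2 FPKM against 144, 136 and 106 (-2.49 ± 0.12, adjusted p = 2.3e-05). Both groups were separate. COL7A1, the anchoring fibril collagen, was higher, with 3.17, 3.15 and 3.08 FPKM against 0.572, 0.811 and 0.846 (1.76 ± 0.15, adjusted p = 0.00021). FN1, fibronectin, had 496, 506 and 507 FPKM against 422, 476 and 470 and was no DEG (-0.17 ± 0.054), but DP-3 day 14 had 1067, 853 and 1518 FPKM (log2 fold change of day 1 against day 14 -1.47, adjusted p = 0.0068). MMP1, the interstitial collagenase, had 20.5 to 21.6 FPKM at DP-3 day 1, 27.1 to 28.8 in D-2 and 56.3 to 95.0 in DP-3 day 14. Of 17 integrins 2 were downregulated, and 0 in either limma fit of FPKM. ITGA6, a laminin receptor, had 20.1 to 21.8 FPKM against 24.6 to 46.8 (-1.22 ± 0.23, adjusted p = 0.0057), a call lost in both limma fits of FPKM and with the DP-3 day 1 libraries summed.

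**Figure D4:**
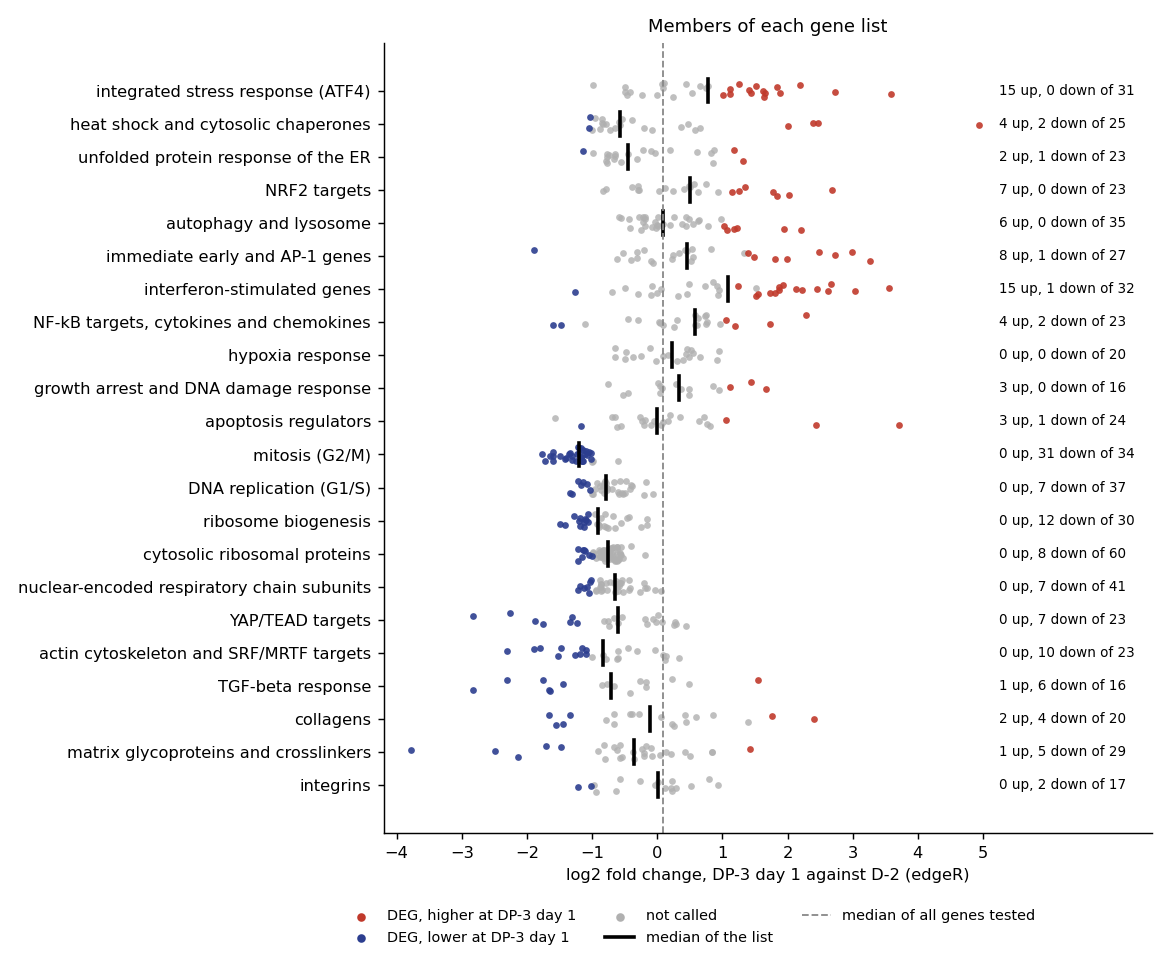
Log2 fold change of DP-3 day 1 against D-2 for the members tested of 22 gene lists, with 1 point per gene, coloured by call, a black bar for the list median and a dashed line for the median of all genes tested (0.10). The ATF4 and interferon lists have 15 upregulated DEGs each, and 31 of 34 mitosis genes are downregulated.

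Lipid synthesis gave few DEGs. Of 23 cholesterol synthesis genes 1 was upregulated (4.35%) and 0 downregulated, and of 15 fatty acid synthesis genes 1 was downregulated (6.67%) and 0 upregulated. SQLE, an enzyme of cholesterol synthesis, had 27.8 to 29.7 FPKM against 22.3 to 24.8 (log2 fold change -0.04 ± 0.059, adjusted p = 0.57), and SCD, which desaturates fatty acids, 85.4 to 85.8 against 58.2 to 70.0 (0.12 ± 0.071, adjusted p = 0.21). In both genes FPKM was higher at DP-3 day 1 and the fit gave no difference, the gap between the scales described above. Of 13 BMP response genes tested 1 was upregulated (7.69%) and 0 downregulated. Their median log2 fold change was 0.75, against 0.10 for all genes tested. In limma on log2(FPKM + 0.1) 7 of the 13 were upregulated, and 1 in limma on log2(FPKM + 1). ID1, an early target of BMP, had 117 to 120 FPKM against 114 to 130 (-0.36 ± 0.059). SPP1, the bone protein osteopontin, had 1.16, 0.948 and 1.22 FPKM against 0.145, 0 and 0.0342 (3.82 ± 1.01, adjusted p = 0.021), a call kept without D-2 replicate 1 or 2 and lost without D-2 replicate 3 or any DP-3 day 1 library. RUNX2, the master factor of osteoblasts, overlapped between groups, with 1.62, 0.610 and 1.36 FPKM against 0.752, 0.815 and 0.713.

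Among DEGs detected in every one of the 6 libraries, whose groups were separate and reached a mean of 1 FPKM, HSPA6 was the only protein-coding gene of the 6 largest rises. MRPL23-AS1, an antisense RNA, had 3.15, 3.13 and 3.63 FPKM at DP-3 day 1 and 0.0573, 0.0357 and 0.121 in D-2 (log2 fold change 5.16 ± 0.43, adjusted p = 0.00016). MIR4426 had 0.213, 16.4 and 21.8 FPKM against 0.132 to 0.145, so 1 DP-3 day 1 library was close to D-2, and its call was kept in 1 of 6 fits that left out a library, that without DP-3 day 1 replicate 1. EDN1, the vasoconstrictor endothelin-1, had 0.898, 0.544 and 0.690 FPKM against 5.13, 4.51 and 3.06 (-2.88 ± 0.28, adjusted p = 0.00031). TOMM6, a small subunit of the mitochondrial import pore that overlaps USP49 on the other strand, had 1.84, 4.51 and 2.73 FPKM against 10.7, 133 and 31.0 in D-2. Its D-2 libraries differed more than 10-fold among themselves, and the call was lost without DP-3 day 1 replicate 3, in 1 fit of all 18 libraries and with the DP-3 day 1 libraries summed. MT-ATP6, which overlaps MT-ATP8 and MT-CO3 on the mitochondrial genome, was the single upregulated gene of 13 mitochondrial transcripts, with 3033, 3011 and 2967 FPKM against 301, 414 and 607 (2.46 ± 0.24, adjusted p = 0.00034). The log2 fold changes of MT-ATP8 and MT-CO3 were 0.27 and -0.63. The nuclear-retained RNAs NEAT1 and MALAT1 were higher as well, NEAT1 with 2.94 to 3.16 FPKM against 0.262 to 0.579 (2.55 ± 0.27, adjusted p = 0.00046) and MALAT1 with 58.4 to 61.2 against 6.72 to 9.27 (2.53 ± 0.12, adjusted p = 2.6e-05). MALAT1 had 17.9 to 47.1 FPKM in DP-3 day 14 and was no DEG between days. In D-3 the means were 6.74 FPKM for NEAT1 and 44.5 for MALAT1.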

How the data were processed

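Poly(A) RNA of 18 libraries in 6 groups was sequenced in read pairs. The authors trimmed reads with cutadapt 1.9, aligned them with HISAT2 2.0.4 and assembled transcripts with StringTie 1.3.4d, as the methods and submitters' notes give. The genome build and annotation are not given in the sources used here. The deposited FPKM values are the authors' StringTie values. The deposited estimated counts are whole numbers whose making is not given in the sources used here. Of 82542 low counts (1 to 40), 35.0% were multiples of 4, and 1 read pair was assumed to give about 4 counts. Of 50119 genes listed, 48223 were found in GENCODE 29, 99.9% at overlapping positions, so positions are on GRCh38.

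Libraries were grouped by their labels. The estimated counts were fitted with edgeR 4.0.16 in R 4.3.3 (TMM, estimateDisp, glmQLFit with default settings, glmQLFTest), each comparison on its own 6 libraries. Genes with at least 0.1 FPKM in at least 3 of the 6 were tested, with Benjamini-Hochberg adjustment over all of them. The SE was the log2 fold change divided by the root of F. With 3 against 3 an exact permutation test cannot go below 0.1, so none was run. Depth was 50327345 to 79082786 estimated counts in the 6 libraries compared, which are therefore not numbers of read pairs. On simulated counts for DP-3 day 1 against D-2 (20269 genes) the test called 17 of 50 genes changed 2-fold, 48 of 50 changed 4-fold and 2 unchanged genes. In it equally many genes were changed up and down, and both groups otherwise shared a mean profile. The differences in scale and in lowly listed genes between the real groups were not simulated, so false calls under them were not measured.

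The comparison, gene lists and named genes were chosen with earlier results of these data known. Genes were named by a rule: per list up to 3 DEGs in each direction with a mean of at least 1 FPKM in a group, the 6 strongest DEGs each way whose groups did not overlap, found in every one of the 6 libraries and reaching a mean of 1 FPKM in a group, a set of stress, cell cycle, matrix and bone genes, and markers. AARS1, ATF4, SLC7A11, MT-ATP8 and MT-CO3 were named after their values were seen. Same-numbered libraries did not deviate together (correlations of -0.0301 to 0.0298), so replicate numbers do not pair them. Other settings were DESeq2 1.42.0, limma 3.58.1 on log2(FPKM + 0.1) and log2(FPKM + 1), legacy = FALSE, other scalings and filters, all 18 libraries, a replicate block, each library left out, and, chosen after seeing the data, protein-coding genes alone and DP-3 day 1 libraries summed. Promoters were matched by symbol to RefSeq (GRCh38.p14). Figures were drawn with matplotlib 3.10.9.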

Additional observations from a re-analysis of the deposited data

How the results depend on the processing

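Against D-2, 3493 DEGs (2655 upregulated, 838 downregulated) were called by edgeR. Counts within 1.5 times of these came from DESeq2, median-of-ratios scaling, legacy = FALSE, TMM without mitochondrial genes, no FPKM minimum and all 18 libraries. Others moved further: limma on log2(FPKM + 0.1) called 284 downregulated, limma on log2(FPKM + 1) 917 DEGs (796 and 121), upper-quartile scaling 487 downregulated, an FPKM minimum of 1 gave 1647 (1264 and 383) among 12357 genes, protein-coding genes alone 1945 (1498 and 447), and DP-3 day 1 libraries summed 1722 (1031 upregulated). Leaving out 1 library gave 3196 to 3535 DEGs, 2362 to 2641 upregulated and 834 to 927 downregulated. Against DP-3 day 14, 1571 (1196 and 375) were called. Limma on log2(FPKM + 0.1) called 2119 upregulated and 161 downregulated, limma on log2(FPKM + 1) 494 (426 and 68), upper-quartile scaling 245 downregulated, an FPKM minimum of 1 900 (698 and 202), and protein-coding genes alone 996 (767 and 229). DP-3 day 1 libraries summed, where the lone sample is assumed to vary like the other group, gave 0 DEGs, with 0 upregulated and 0 downregulated, in edgeR, where 3225 genes had an unadjusted p below 0.05. Leaving out 1 library gave 708 to 1529 DEGs, 470 to 1176 upregulated and 238 to 375 downregulated, and the 3 fits without a DP-3 day 1 library called 708 to 807. With the replicate number as a block, 2668 DEGs were called against D-2 and 938 (651 upregulated) against DP-3 day 14. The cause of these moves was not tested, except that fewer genes or libraries entered some fits. Of 105 named DEGs, 56 kept their call in every setting, 20 lost it only in limma fits of FPKM, and 0 changed direction. Depth limits low genes: 12 estimated counts, taken as 3 read pairs of about 4 counts each and used as the floor for folds against 0, were 0.152 to 0.238 CPM in these 6 libraries.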
